A study of Mus musculus with 12 samples.

Results

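Inorganic arsenic (iAs) in drinking water was compared with clean water in TC2Ras tumors that carried no added stromal cells. TC2Ras is a Ras-driven mouse prostate cancer cell line. The comparison was fixed by the sample labels alone and covers 6 of the 12 tumors of the series: the 3 A300 tumors against the 3 Control1 tumors. Of 55401 genes in the table, 20818 passed a filter on low counts and were tested.

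In all groups 125000 cells were implanted under the skin of both flanks, after 2 weeks on low-arsenic chow and purified water, and tumors were taken at 21 days, with left and right flank tumors of a mouse combined. The A300 mice then drank 300 ppb iAs and the Control1 mice 0 ppb. ASC and ASC300 tumors, which serve here only as a second view of iAs, had the same exposures of 0 and 300 ppb, and 1% of their implanted cells were GFP-labeled adipose-derived stromal cells. Mouse strain, sex and age are not in the labels used here, each group is 3 mice implanted with 1 cell line, and a subcutaneous tumor lacks the prostate around it. The labels name the material as stromal cells, whereas the methods describe excised tumors. The prostate markers Pbsn, Hoxb13 and Tmprss2 did not pass the low-count filter. The mesenchymal gene Vim lay between 2095 and 3257 CPM (counts scaled to library size) in the 6 tumors, and the epithelial adhesion gene Epcam between 0.247 and 1.34 CPM.

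As background, trivalent iAs binds thiol groups of proteins and is methylated by the enzyme As3mt. Cells meet it with metallothioneins, which bind metals, with NRF2 targets that rebuild glutathione and detoxify oxidants, and with chaperones. Arsenic can also impair mitochondria, disturb zinc finger proteins and alter signaling by stress kinases and growth factors.

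Total counts ran from 41670675 to 55168642 per tumor in A300 and from 45721042 to 49479733 in Control1. In each tumor more genes had 4 counts than 3 or 5, and 12 counts in a tumor (3 read pairs if each is worth 4) was used as the floor at or below which a gene was taken as not measurable, which covers counting error only. Control1 tumor 1 stood apart: on the first principal component, with 17.27% of the variance, it was at 101.8, and the A300 tumors were between -64.9 and -18.5. It also had the highest summed levels of B cell, plasma cell and T cell genes of the 6 tumors. Muscle RNA was high in A300 tumor 1 and Control1 tumor 2, with 2760 and 2819 CPM summed over skeletal muscle genes, against 59.6 to 113.5 CPM in the other 4 tumors. Each mouse counts as 1 replicate.

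Few genes were called different between A300 and Control1 tumors, and most of those called changed by less than 2-fold. A gene was called when its adjusted p-value (edgeR quasi-likelihood test, Benjamini-Hochberg) was under 0.05 and its change at least 1.5-fold. By this rule 146 genes were higher in A300 tumors, 0.701% of the genes tested, and 74 were lower, 0.355%. At an unadjusted p under 0.05 and without a fold limit, 2324 were higher and 2701 lower. The median change was 0.76 on the log2 scale in the first set and -0.72 in the second, and 112 of the 146 and 58 of the 74 changed by less than 1 on that scale. In 3022 genes (14.5%) every A300 tumor was above every Control1 tumor, and in 3197 (15.4%) every one was below. The calls lay close to the threshold, with adjusted p-values from 0.0356 to 0.0499. Without Control1 tumor 1, 2 or 3 no gene was called at all in either direction (2341, 2317 and 2308 genes higher and 2162, 1923 and 1978 lower at an unadjusted p under 0.05), whereas the DESeq2 Wald test on all tumors called 495 higher and 321 lower. Leaving out A300 tumor 2 or 3, or ASC300 tumor 1, 2 or 3, which enter the shared estimate of spread, left at most 7 genes higher and 1 lower.

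The called genes differed in base composition. Transcripts of the higher set had a median GC content of 56.6% (quartiles 51.6 to 59.6%) and a median length of 1439 bases, those of the lower set 41.3% (39.2 to 44.9%) and 4360.5 bases, and all genes tested 49.1% and 2815 bases. In the decile of genes with the highest GC content the median log2 change was 0.29, with 59 genes called higher and 0 lower. In the decile with the lowest GC content, between 22.1 and 40.7%, it was -0.31, with 2 called higher and 33 lower. ASC300 and ASC tumors, compared in the same way, gave 0.02 and -0.04. All 3 Control1 tumors were above the mean of the 12 tumors in the lowest GC decile, by 0.13 to 0.24 on the log2 scale, whereas the A300 tumors were at 0.00, -0.30 and -0.08. When each tumor was corrected for GC content, 0 genes were called higher and 0 lower (1813 and 1541 at an unadjusted p under 0.05), and the smallest adjusted p-value was 0.0818. What part GC content has in the individual calls was not tested. The GC-corrected log2 change is given beside many named genes but not all, so a missing value does not mean that the change held.

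**Figure D1:**
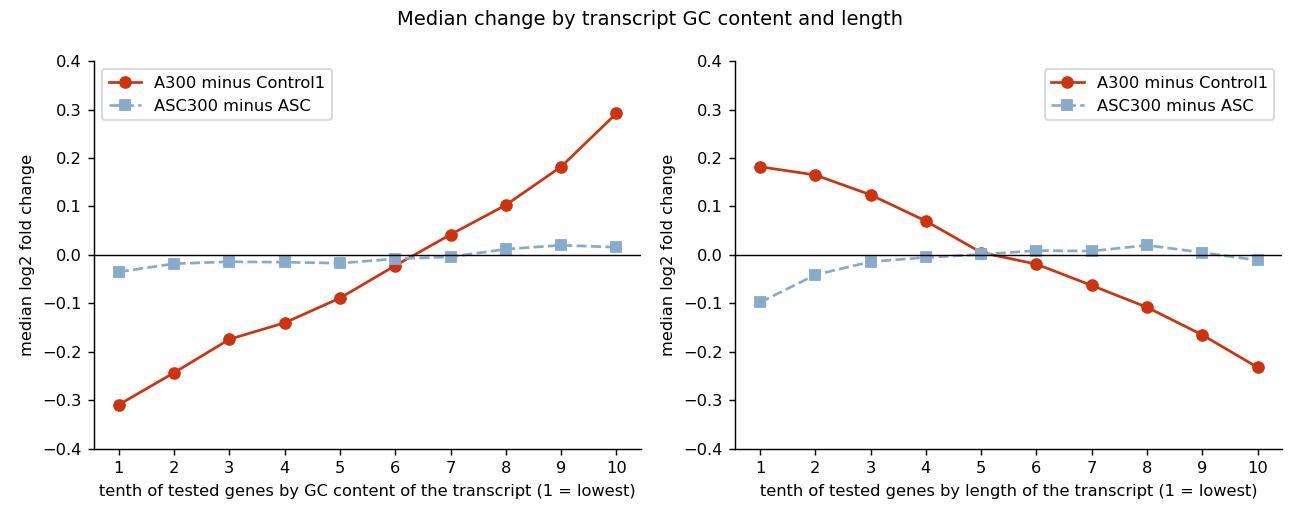
Median log2 fold change (y axis) of the genes in each decile (x axis) of transcript GC content and of transcript length, for A300 minus Control1 and for ASC300 minus ASC. The A300 line climbs from -0.31 to 0.29 with GC content and drops from 0.18 to -0.23 with length, and the ASC300 line stays near 0.

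The contrast in composition is visible in the first 150 coding bases of 2 genes from each set, shown because they span the range from GC-rich to AT-rich. They were read from GENCODE M21 on GRCm38, with G and C in capitals. Cebpb (chromosome 2, 167688915 to 167690418, plus strand) encodes a transcription factor of inflammation and adipogenesis, and H1fx (chromosome 6, 87980421 to 87981637, minus strand) a linker histone. Mtf2 (chromosome 5, 108065674 to 108109004, plus strand) encodes an accessory subunit of the Polycomb complex PRC2, and mt-Atp8 (mitochondrial chromosome, 7766 to 7969, plus strand) a subunit of ATP synthase. The printed stretches hold 75.3%, 68.0%, 44.0% and 32.7% G and C, in this order.
Cebpb, higher in A300: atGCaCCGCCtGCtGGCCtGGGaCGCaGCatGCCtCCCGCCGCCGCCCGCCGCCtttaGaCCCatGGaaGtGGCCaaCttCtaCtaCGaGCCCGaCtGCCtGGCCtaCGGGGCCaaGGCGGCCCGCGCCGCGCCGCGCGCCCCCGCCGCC
H1fx, higher in A300: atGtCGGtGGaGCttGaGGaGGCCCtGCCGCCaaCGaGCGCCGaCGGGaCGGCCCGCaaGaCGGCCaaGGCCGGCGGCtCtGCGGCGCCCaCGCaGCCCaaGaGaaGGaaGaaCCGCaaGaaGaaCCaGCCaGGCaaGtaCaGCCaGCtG
Mtf2, lower in A300: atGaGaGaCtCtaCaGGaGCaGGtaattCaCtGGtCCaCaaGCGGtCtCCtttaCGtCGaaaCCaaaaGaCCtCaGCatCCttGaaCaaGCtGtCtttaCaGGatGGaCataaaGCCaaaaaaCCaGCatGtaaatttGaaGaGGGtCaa
mt-Atp8, lower in A300: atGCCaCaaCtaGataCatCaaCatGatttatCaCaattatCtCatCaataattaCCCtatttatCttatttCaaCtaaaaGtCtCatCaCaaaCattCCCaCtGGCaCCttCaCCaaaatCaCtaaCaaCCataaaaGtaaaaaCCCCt

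Genes of growth factor and immediate early signaling were among the changes with the smallest adjusted p-values. Tgfb1 (ENSMUSG00000002603), the gene of the cytokine TGF-beta 1, which restrains T cells and drives fibrosis, stood at 119, 132 and 118 CPM in A300 tumors 1 to 3 and at 81.2, 73.8 and 84.1 CPM in Control1 tumors 1 to 3. The groups did not overlap, and Tgfb1 rose 1.54-fold (log2 change 0.63, SE 0.08, adjusted p = 0.0356; 0.56 after GC correction). Cebpb was at 35.9, 27.8 and 33.6 CPM against 17.4, 14.1 and 14.3 CPM. It rose 2.13-fold (1.09 on the log2 scale, SE 0.15, adjusted p = 0.0356), and its GC-corrected change was 0.59. Ier3, an early response gene that modulates ERK signaling and cell survival, was at 97.5, 107 and 86.4 CPM against 60.8, 58.0 and 64.6 CPM and rose 1.59-fold (adjusted p = 0.0356). Phlda1, a target of the Ras-MAPK cascade, rose 1.59-fold as well (68.9, 78.0 and 63.7 CPM against 38.9, 42.3 and 51.4 CPM, adjusted p = 0.045), with 0.40 on the log2 scale after GC correction. Junb, an AP-1 subunit, had an adjusted p of 0.0401 and a 1.48-fold higher level, just under the fold limit, with 110, 117 and 119 CPM against 73.3, 74.9 and 85.5 CPM, and its log2 change of 0.57 became 0.19 after GC correction. Of 19 listed Ras-MAPK targets and immediate early genes, 15 had a higher mean in A300 tumors and 2 were called higher. Over all genes 47.5% had a higher mean and 0.701% were called higher. The median log2 change of this list was 0.15, beside -0.03 over all genes. Its median GC content was 55.53%, and the decile of all genes that spans this value had a median change of 0.182. After GC correction the list median was 0.098, beside -0.009 over all genes, and 0 members were called. With length corrected as well, these medians were 0.089 and -0.006. Of 14 TGF-beta pathway genes only Tgfb1 was called, and the median of that list was -0.15.

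**Figure D2:**
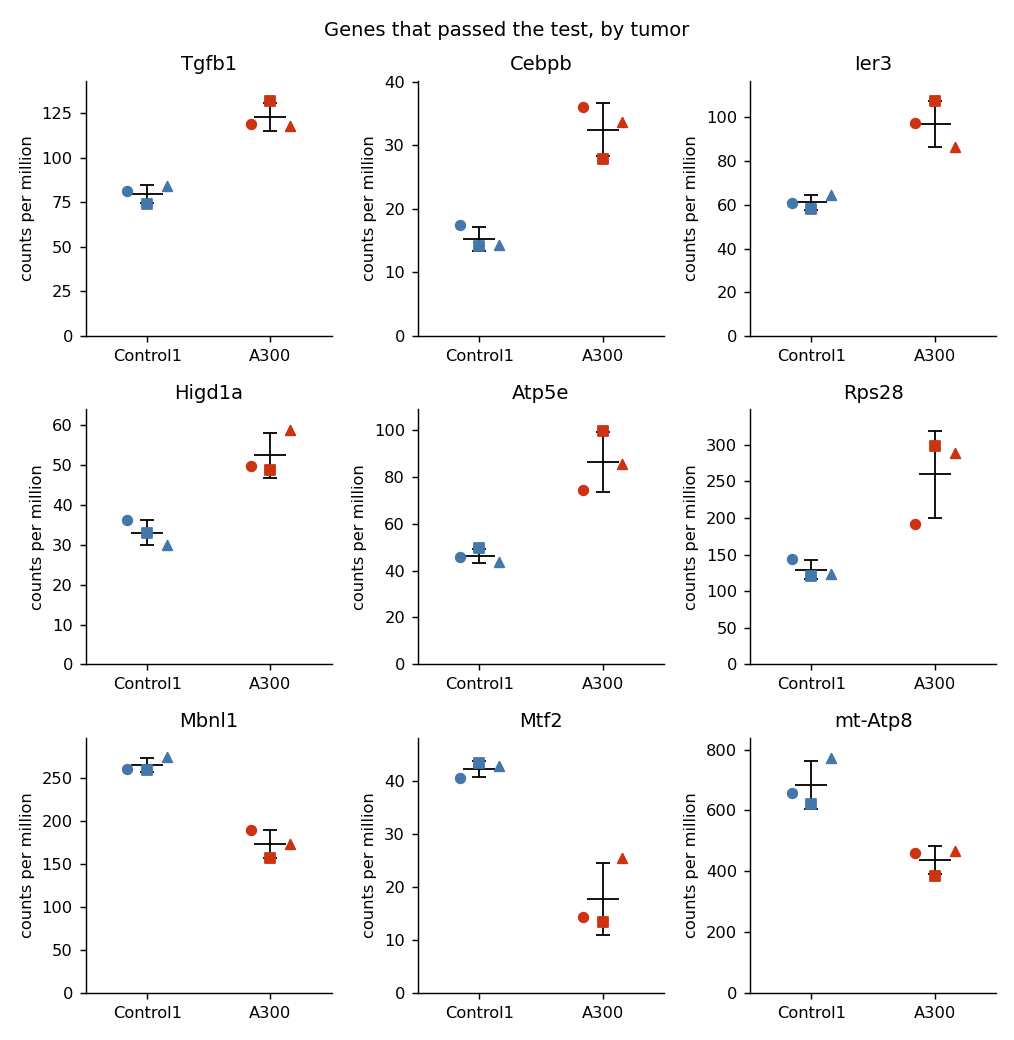
CPM (y axis) of 9 called genes in the 3 Control1 and 3 A300 tumors; circles, squares and triangles stand for tumors 1, 2 and 3, and bars for the mean ± SD. The A300 tumors are all above the Control1 tumors for Tgfb1, Cebpb, Ier3, Higd1a, Atp5e and Rps28 and all below them for Mbnl1, Mtf2 and mt-Atp8.

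Small proteins of the ribosome and of the respiratory chain made up another part of the higher set. Of 24 cytosolic ribosomal protein genes in the list, 22 had a higher mean in A300 tumors, 19 did not overlap and 8 were called. Among all genes 14.5% did not overlap upward and 0.701% were called higher. The list had a median log2 change of 0.48 (0.43 after GC correction, and 0.275 with transcript length corrected as well). It is only a part of the family: of 81 tested genes named Rpl or Rps, 9 were called higher. Rps28, a protein of the small subunit, was at 191, 298 and 289 CPM in A300 tumors and at 144, 120 and 123.3 CPM in Control1 tumors, and rose 2.01-fold (log2 change 1.01, SE 0.21, adjusted p = 0.043). Rps29 rose 1.96-fold, Rps16 1.66-fold, and Rps19, Rps21, Rpl18, Rpl36 and Rplp2 between 1.55-fold and 1.70-fold. The log2 change of Rpl36 went from 0.76 to 0.43 with GC correction. A300 tumor 1 was the lowest of the A300 tumors for Rps28, Rps29 and Rps16. Ribosomal protein genes have many processed pseudogenes, and how reads were shared between copies is not known, so single values of this family are uncertain. Processed pseudogenes were 17 of the 146 genes called higher (11.6%), 6.8% of those called lower and 7.7% of all genes tested. Mrps24, a protein of the mitochondrial ribosome, rose 1.86-fold (29.8, 37.7 and 31.0 CPM against 19.7, 17.1 and 16.2 CPM, adjusted p = 0.0401).

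Most nuclear genes of oxidative phosphorylation had higher means in A300 tumors and the mitochondrially encoded ones lower means, with 2 calls in each list. Among 22 nuclear genes 21 had a higher mean in A300 tumors, 11 did not overlap and 2 were called. Over all genes 14.5% did not overlap upward and 0.701% were called higher. The median log2 change of the 22 was 0.37. Atp5e, a small ATP synthase subunit, was at 74.2, 99.6 and 85.4 CPM against 45.8, 49.4 and 43.7 CPM and rose 1.87-fold (log2 change 0.90, SE 0.15, adjusted p = 0.0401). Ndufa2, of complex I, rose 1.74-fold (53.3, 70.1 and 80.9 CPM against 38.4, 40.8 and 38.6 CPM). Higd1a, a small inner membrane protein that acts on the respiratory chain, rose 1.59-fold (49.7, 48.7 and 58.8 CPM against 36.1, 33.0 and 29.9 CPM, adjusted p = 0.037). All 13 mitochondrially encoded genes had a lower mean in A300 tumors, and 2 of them fell. The first, mt-Atp8, was at 461, 383 and 465 CPM against 657, 620 and 771 CPM (log2 change -0.64, SE 0.12, adjusted p = 0.041), and mt-Nd4l at 208, 153 and 184 CPM against 271, 307 and 314 CPM (-0.71, SE 0.16, adjusted p = 0.0448). After GC correction these changes were -0.17 and -0.45. Both share bases with a neighboring gene, mt-Atp6 and mt-Nd4, and reads in the overlap cannot be assigned. The median of the 13 genes was -0.22 and turned to 0.18 after GC correction, whereas that of the nuclear genes became 0.41. With length corrected as well, the medians were 0.004 and 0.29. Both lists hold short transcripts, with median lengths of 784 and 833 bases. Over all genes, the deciles of 47 to 792 and 792 to 1330 bases had median changes of 0.182 and 0.165. The mitochondrial share of all counts was 2.73 to 3.40% in A300 tumors and 3.39 to 3.89% in Control1 tumors.

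Of the known arsenic defenses, 2 genes were called. In the list of metallothioneins and arsenic handling 12 of 20 genes tested had a higher mean in A300 tumors, and the 2 called higher are 10% of the list, beside 0.701% of all genes. Gstp1, a glutathione transferase, was at 291, 339 and 304 CPM against 197, 193 and 203 CPM, and rose 1.58-fold (log2 change 0.66, SE 0.15, adjusted p = 0.0453; 0.48 after GC correction). The metallothionein gene Mt3, known from brain, was at 2.20, 1.31 and 1.98 CPM against 0.475, 0.576 and 0.239 CPM, and rose 4.22-fold from a low level (2.08, SE 0.50, adjusted p = 0.0482). Mt1 and Mt2, the metallothioneins of most tissues, and Hmox1 and As3mt are given next because they are the best known responders to arsenic, and their values were known when they were chosen. Mt1 was at 253, 196 and 166 CPM in A300 tumors and 116, 156 and 185 CPM in Control1 tumors, with overlapping groups (0.43, SE 0.20, adjusted p = 0.207). Mt2 gave 0.39 (SE 0.20, adjusted p = 0.253; 0.23 after GC correction) with 236, 150 and 147 CPM against 109, 135 and 162 CPM. For both genes the highest A300 tumor was tumor 1. As3mt lay between 11.98 and 15.6 CPM in all 6 tumors (log2 change 0.14, adjusted p = 0.697).

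The promoter stretches of Mt2 and Mt3 searched here differ in the core of the metal response element, the site of the zinc-sensing factor MTF-1. They are printed to show 1 stretch with many matches and 1 with few. The 250 bases before the RefSeq start (GRCm38.p6) were searched on both strands for TGCNCNC, and matches are in capitals. Mt2 (chr8:94172368-94172617, plus strand) holds 5 matches, and 0.3% of all 32851 promoters hold as many. Mt3 (chr8:94152357-94152606, plus strand) holds 1 match, and 44.4% of all promoters hold at least 1. Mt1, whose measured values were close to those of Mt2, also holds 1 match in the same window. Sites outside the 250 bases before the start used were not searched, so these counts do not describe whole promoters.
Mt2: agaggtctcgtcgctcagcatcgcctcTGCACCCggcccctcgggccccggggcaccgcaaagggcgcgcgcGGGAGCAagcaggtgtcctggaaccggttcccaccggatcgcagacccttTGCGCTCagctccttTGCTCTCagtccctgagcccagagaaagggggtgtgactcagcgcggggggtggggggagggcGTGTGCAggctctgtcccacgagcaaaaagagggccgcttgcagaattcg
Mt3: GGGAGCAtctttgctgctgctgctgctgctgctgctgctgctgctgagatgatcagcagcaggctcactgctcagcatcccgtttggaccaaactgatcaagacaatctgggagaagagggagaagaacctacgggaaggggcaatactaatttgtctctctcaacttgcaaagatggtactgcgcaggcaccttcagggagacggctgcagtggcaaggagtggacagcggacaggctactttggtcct
The core was present in 10 of 24 promoters of the metal list (41.7%), in 71 of 120 of the genes called higher (59.2%) and in 37 of 68 of those called lower (54.4%). The antioxidant core TGACNNNGC was found in 6 of 24 promoters of the NRF2 list (25%), 12 of the 120 (10%) and 4 of the 68 (5.9%), against 10.2% of all. The heat shock core GAANNTTC was found in 6 of 16 promoters of the chaperone list (37.5%), 7 of the 120 (5.8%) and 2 of the 68 (2.9%), against 6.7% of all. Some genes have more than 1 promoter in the table, and a match is only a run of letters.

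None of 23 NRF2 targets, the oxidative stress genes, was called (15 with a higher mean in A300 tumors, 8 lower, median log2 change 0.10), and the groups did not overlap in 5 of them upward and 4 downward, beside 14.5% and 15.4% of all genes. With under 1% of all genes called, no call in a list of this size differs little from the background. Ftl1, the ferritin light chain that stores iron, was at 1706, 1619 and 1389 CPM against 1079, 1167 and 1087 CPM, a 1.41-fold difference with an adjusted p of 0.0447 that stayed under the fold limit (log2 change 0.50, and 0.26 after GC correction). Hmox1, heme oxygenase, was at 237, 111 and 90.1 CPM against 100, 142 and 124 CPM, so that A300 tumor 1 alone was above the Control1 tumors (log2 change 0.26, adjusted p = 0.677, and -0.28 without that tumor). Nfe2l2, which encodes NRF2 itself, had a log2 change of -0.32 (adjusted p = 0.0937). None of 16 heat shock and chaperone genes was called either. Of these 11 had a higher mean in A300 tumors (median 0.18, and 0.14 after GC correction). The groups did not overlap in 5 of them upward and 0 downward, beside 14.5% and 15.4% of all genes. Dnajb1, a co-chaperone, was at 110, 95.5 and 137 CPM against 70.7, 77.1 and 88.8 CPM (0.53, adjusted p = 0.0539), and Hspb1, a small heat shock protein, at 104, 38.4 and 32.2 CPM against 5.17, 28.5 and 10.8 CPM (1.97, adjusted p = 0.122).

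Among 15 p53 targets Bax alone was called, which encodes a pore-forming protein of apoptosis. It was at 49.2, 60.4 and 61.6 CPM against 42.7, 35.4 and 34.1 CPM and rose 1.53-fold (log2 change 0.61, SE 0.14, adjusted p = 0.045), but its GC-corrected change was 0.20. Cdkn1a, the cell cycle inhibitor p21, was at 69.6, 59.4 and 59.1 CPM against 46.2, 45.6 and 47.0 CPM, a 1.35-fold difference with an adjusted p of 0.043 that missed the fold limit. The other lists of stress and growth were near the median of all genes: 0.03 for 16 genes of the integrated stress response (Cebpb was the 1 gene called), 0.09 for 16 hypoxia and glycolysis genes and 0.00 for 18 cell cycle genes, with no call in the last 2 lists. Mki67, a marker of cycling cells, was at 132, 95.2 and 150 CPM against 212, 185 and 195 CPM (-0.65, adjusted p = 0.0529). Of 12 replication-dependent histone genes 11 had a higher mean in A300 tumors and 0 were called (median 0.43), and poly(A) selection keeps few of their transcripts. H1fx, a polyadenylated linker histone gene, rose 2.43-fold (8.01, 12.6 and 11.3 CPM against 6.01, 2.72 and 4.43 CPM, adjusted p = 0.045), or 0.64 on the log2 scale after GC correction.

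**Figure D3:**
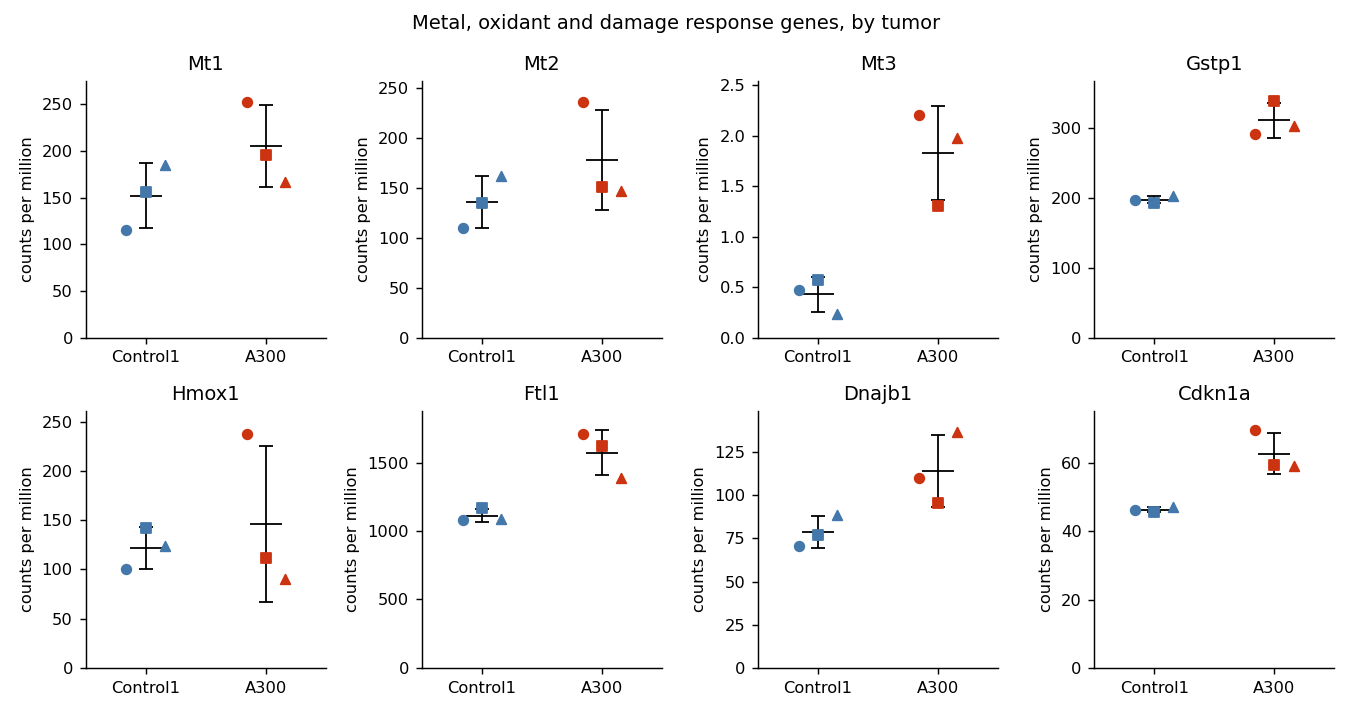
CPM (y axis) of 8 genes of arsenic defense and stress in the 3 Control1 and 3 A300 tumors; circles, squares and triangles stand for tumors 1, 2 and 3, and bars for the mean ± SD. Gstp1 and Mt3 do not overlap between groups, whereas for Mt1, Mt2 and Hmox1 A300 tumor 1 is the highest of 6 and the other tumors overlap.

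Genes of neurons and glia had higher means in A300 tumors throughout most lists, with few calls in each. All 22 genes of presynaptic vesicle machinery had a higher mean in A300 tumors, where 47.5% of all genes did. Of the 22, 19 did not overlap and 3 were called, where 14.5% and 0.701% of all genes did so upward. The median log2 change of the 22 was 1.08, and 1.10 after GC correction. Syp, a synaptic vesicle membrane protein, was at 12.1, 10.7 and 12.7 CPM in A300 tumors and at 2.96, 4.36 and 4.62 CPM in Control1 tumors, and rose 2.98-fold (1.57, SE 0.26, adjusted p = 0.0401). Syn2, which tethers vesicles, rose 4.23-fold (5.13, 4.66 and 3.18 CPM against 0.475, 1.17 and 1.41 CPM). Shank1, a scaffold of excitatory synapses, rose 4.93-fold (2.33, 2.09 and 1.71 CPM against 0.393, 0.537 and 0.304 CPM, adjusted p = 0.037) and was the 1 gene called of 18 postsynaptic genes (median 0.91, or 0.64 with genes at the floor set to their bound).

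Ion pumps, channels and the neuronal cytoskeleton gave similar counts. Of 20 neuronal ion channel genes 18 had a higher mean in A300 tumors and 3 were called (median 1.30). The same held for 47.5% and 0.701% of all genes. Kcnip3, a calcium sensor that binds potassium channels, was at 1.70, 2.43 and 3.14 CPM against 0.971, 0.825 and 0.586 CPM and rose 3.05-fold (log2 change 1.61, SE 0.33, adjusted p = 0.043). Atp1b1, a beta subunit of the sodium pump, was at 23.9, 19.3 and 15.7 CPM against 8.35, 12.4 and 9.98 CPM and rose 1.92-fold. Of 19 cytoskeleton and identity genes 18 had a higher mean and 2 were called, the neurofilament gene Nefh (2.95, 1.72 and 0.936 CPM against 0.269, 0.441 and 0.607 CPM, 4.23-fold) and the tubulin-binding Stmn2 (2.35-fold). Outside these lists, Tubb4a, a brain tubulin, rose 2.67-fold, Prkar1b, a regulatory subunit of protein kinase A, 2.91-fold, Rtn1, a reticulon, 2.46-fold, and Tpgs1, a subunit of the tubulin polyglutamylase complex, 2.01-fold (20.8, 24.0 and 25.4 CPM against 11.7, 11.7 and 11.5 CPM, adjusted p = 0.0356; log2 change 1.00, and 0.55 after GC correction). None of the 18 neurotransmitter receptor and synthesis genes was called. Of these genes 17 had a higher mean in A300 tumors (median 1.41) and 11 did not overlap, beside 14.5% of all genes.

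Glial genes had the same direction. Of 14 oligodendrocyte and myelin genes 13 had a higher mean in A300 tumors, 11 did not overlap upward and 1 was called (median 1.28). Over all genes 14.5% did not overlap upward and 0.701% were called higher. The called gene was Mbp, myelin basic protein, at 50.7, 40.6 and 36.4 CPM against 13.5, 22.9 and 18.3 CPM, which rose 2.33-fold (log2 change 1.22, SE 0.18, adjusted p = 0.037). Among 12 astrocyte genes Aldoc, an aldolase of brain, was called and rose 2.21-fold (15.0, 11.9 and 18.0 CPM against 5.25, 8.29 and 6.77 CPM), and 11 had a higher mean (median 1.16). The list of Schwann cells, the glia of peripheral nerve, had a median of 0.29, with 6 of 10 genes higher and no call. Of 11 neuroendocrine genes 10 had a higher mean and 0 were called. The neuroendocrine regulators Insm1 and Neurod1 and the oligodendrocyte regulator Olig2 did not pass the low-count filter.

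Control1 tumor 1 was the lowest of the 6 for many of these genes. Snap25, a fusion protein of synapses, was at 24.2, 19.3 and 14.3 CPM in A300 tumors and at 0, 7.06 and 8.505 CPM in Control1 tumors (log2 change 1.89, SE 0.91, adjusted p = 0.227). Mobp, of myelin, and Gfap, of astrocytes, were also listed at 0 in that tumor alone. With only genes that had at least 10 counts in every tumor, the median was 0.66 over 15 presynaptic, 0.46 over 12 postsynaptic, 0.80 over 3 neurotransmitter, 0.99 over 8 ion channel, 0.62 over 15 cytoskeleton, 0.43 over 4 neuroendocrine, 0.90 over 5 oligodendrocyte and 0.42 over 7 astrocyte genes. Without Control1 tumor 1 the median changes were 0.80 for presynaptic, 0.98 for neurotransmitter, 1.04 for ion channel and 1.04 for oligodendrocyte genes. Summed over the presynaptic list, A300 tumors had 493, 505 and 476 CPM and Control1 tumors 342, 377 and 377 CPM, while ASC tumors lay between 396.6 and 423 CPM and ASC300 tumors between 412.5 and 456.8 CPM. For the neurotransmitter list these were 46.3, 41.9 and 30.4 CPM, then 4.77, 18.0 and 21.9 CPM, and 17.6 to 24.3 CPM in the other 6 tumors. The sums of the astrocyte list overlapped, with 353 to 388 CPM in A300 tumors and 307 to 455 CPM in Control1 tumors. Transcripts of brain genes were thus measured in tumors of every group, and for the first 2 lists the A300 tumors were above the other 9. In such bulk RNA, more cells of a type and more RNA per cell cannot be told apart, and the source of these transcripts was not tested.

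**Figure D4:**
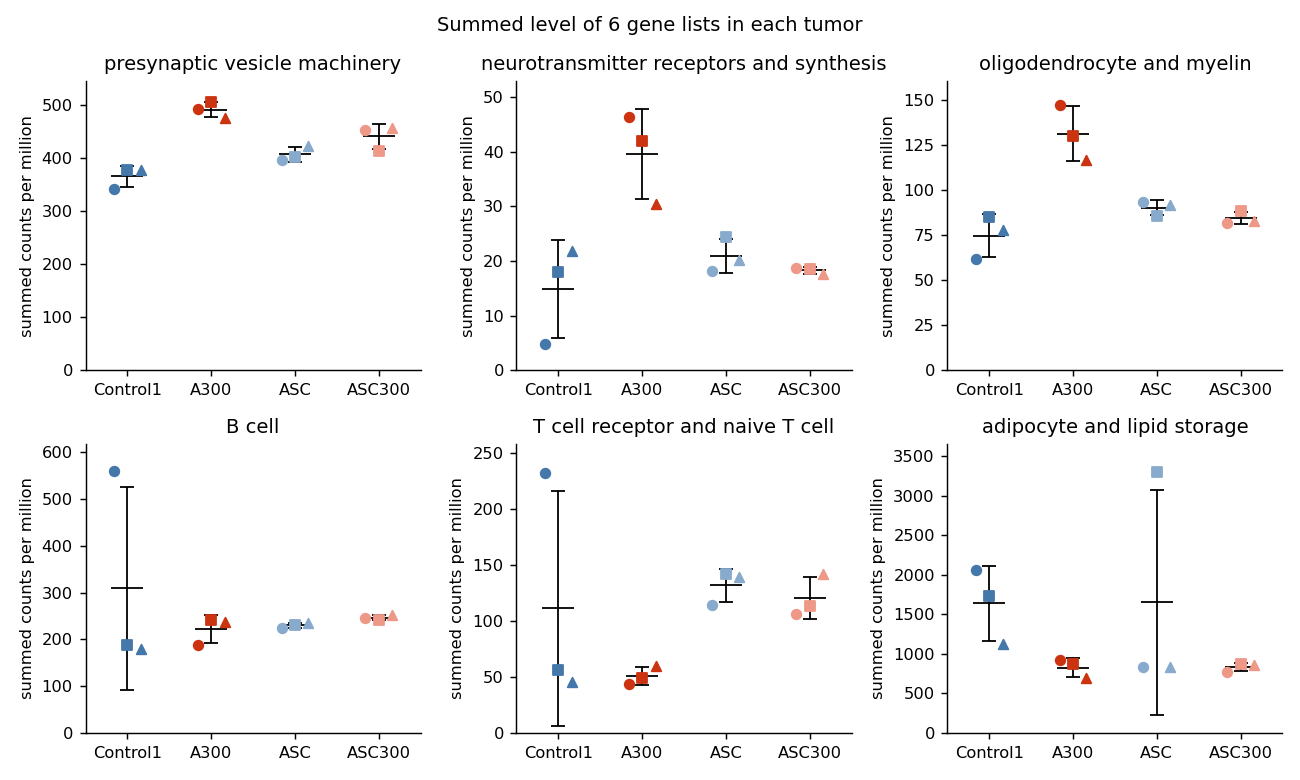
Summed CPM (y axes) of 6 gene lists in each of the 12 tumors, by group (x axis). The A300 tumors are above all other tumors for the presynaptic, neurotransmitter and oligodendrocyte lists, whereas Control1 tumor 1 is far above the other A300 and Control1 tumors for the B cell and T cell lists.

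Several of the genes with the smallest adjusted p-values in the lower set encode regulators of RNA or chromatin, whereas none of the 28 genes in the list of such regulators was called. Mbnl1, a splicing regulator of the muscleblind family, was at 190, 158 and 174 CPM in A300 tumors and at 261, 260 and 275 CPM in Control1 tumors, and fell 1.53-fold (log2 change -0.61, SE 0.09, adjusted p = 0.0401). Mtf2, printed above for its sequence, was at 14.4, 13.4 and 25.5 CPM against 40.5, 43.4 and 42.8 CPM and fell 2.37-fold (-1.25, SE 0.20, adjusted p = 0.0401). Sp3, a zinc finger factor that binds GC boxes, fell 1.59-fold (56.6, 45.2 and 50.8 CPM against 75.001, 83.4 and 84.3 CPM), and Ankhd1, an ankyrin repeat protein, fell 1.78-fold. Bclaf1, of RNA processing and cell death, fell by 0.59 on the log2 scale. Ints2, of the Integrator complex that cuts small nuclear RNAs, fell 1.51-fold. GC correction left -0.31 for Mbnl1, -0.91 for Mtf2, -0.38 for Sp3, -0.28 for Bclaf1, -0.39 for Ints2 and -0.71 for Ankhd1.

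Zinc finger genes named Zfp made up 10 of the 74 genes called lower and 0 of those called higher, with 367 such genes among all tested. Zfp184 was at 3.73, 4.29 and 3.74 CPM against 7.15, 7.25 and 7.75 CPM and fell 1.88-fold (adjusted p = 0.041; -0.79 after GC correction). In the list of 28 RNA splicing and chromatin regulators 27 had a lower mean in A300 tumors, 19 did not overlap, and 0 were called. The median log2 change was -0.32, with -0.17 after GC correction and -0.08 with length corrected as well. The DESeq2 Wald test and limma voom each called 1 lower. Over all genes 15.4% did not overlap downward and 0.355% were called lower. Srsf1, a splicing factor, had an adjusted p of 0.045 with a log2 change of -0.34, and -0.06 after GC correction. Rpph1, the RNA of ribonuclease P, went the other way and rose 4.08-fold (32.8, 24.8 and 27.6 CPM against 8.47, 4.34 and 8.09 CPM, adjusted p = 0.0453), although it carries no poly(A) tail and the libraries were made from polyadenylated RNA.

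Further genes named by the rule for the smallest adjusted p-values or the largest folds were Filip1l (log2 change -0.61, and -0.40 after GC correction), Odr4 (-0.65) and Fam120c (-1.03) in the lower set. The uncharacterized loci Gm9118 (-0.62), Gm6477 (-0.84), 0610030E20Rik (-1.48), E430024I08Rik (-1.25) and Gm14326 (-1.16) were lower as well, and Gapdh-ps15 (0.64) and Gm13436 (0.87) were higher. Gm49339 was at 2.501, 14.7 and 4.84 CPM in Control1 tumors and at the floor in all A300 tumors, at least 29.1-fold lower.

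Adipocyte genes had lower means in A300 tumors, and none was called in the fit to all 12 tumors, whereas 4 were called lower with the 6 compared tumors alone and 3 without ASC tumor 2. Of 22 members 21 had a lower mean and 14 did not overlap, where 15.4% of all genes did not overlap downward. The median log2 change was -1.74, with -1.30 when Control1 tumor 1 was left out. Plin1, which coats lipid droplets, was at 2.13, 2.39 and 0.636 CPM against 21.5, 12.6 and 6.90 CPM (-3.00, SE 1.28, adjusted p = 0.175). Scd1, a fatty acid desaturase, was at 136, 141 and 102 CPM against 678, 478 and 275 CPM (-1.91, SE 0.67, adjusted p = 0.109). Cd36, a fatty acid transporter, was at 22.1, 15.5 and 11.3 CPM against 48.9, 43.9 and 28.5 CPM. None of the 3 overlapped between groups, but the Control1 tumors differed widely among themselves, with tumor 1 the highest for each. Summed over the list, A300 tumors had 919, 866 and 695 CPM and Control1 tumors 2061, 1730 and 1122 CPM. ASC tumors had 830.5, 3298 and 834.4 CPM, so that ASC tumor 2 alone was high, and ASC300 tumors 770 to 877 CPM. The sterol synthesis list had a median of -0.06 and no call.

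Lymphoid genes depended on 1 tumor. The B cell list summed to 188, 241 and 237 CPM in A300 tumors and to 560, 188 and 180 CPM in Control1 tumors, and its median log2 change of -3.55 became -0.05 without Control1 tumor 1. The T cell list behaved in the same way, with 43.4, 49.2 and 59.4 CPM against 232, 56.4 and 45.2 CPM and a median of -1.20 that became 0.06, as did the plasma cell (-3.18 to -0.21), lymph node (-1.89 to 0.02), cytotoxic and NK cell (-0.37 to 0.01) and interferon-stimulated lists (-0.21 to 0.02). The median of the dendritic cell and MHC class II list turned from -0.42 to 0.40. Klri2 and Stat4 were called lower. Klri2, a receptor of NK cells, was at 0.400, 0.327 and 0.194 CPM against 0.889, 0.940 and 1.02 CPM (log2 change -1.63, adjusted p = 0.045, and -1.66 without Control1 tumor 1). Stat4, a transcription factor of T helper and NK cells, had a change of -1.31 (-1.06 without that tumor).

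Macrophage, stromal and vascular genes gave no call. The macrophage list had a median log2 change of 0.05, with 11 of 18 higher. The complement gene C1qa was at 247, 249 and 243 CPM against 183, 190 and 159 CPM, with an adjusted p of 0.045 and a change of 0.47 under the fold limit. C1qb and C1qc had changes of 0.47 and 0.46. After GC correction the changes of C1qa, C1qb and C1qc were 0.19, 0.25 and 0.24. Medians were -0.19 for neutrophil, -0.47 for complement, -0.12 for fibroblast, -0.05 for endothelial, 0.19 for epidermal and -0.18 for prostate and TRAMP line genes. These medians moved when 1 tumor was left out: the macrophage one from -0.07 to 0.15 (without Control1 tumor 3 and 2), the neutrophil one from -0.46 to 0.21 (without Control1 tumor 3 and 2), the complement one from -1.02 to -0.22 (without A300 tumor 1 and 2), and the fibroblast one from -0.24 to -0.03 (without A300 tumor 1 and 3). The endothelial median ran from -0.19 to 0.10 (without A300 tumor 1 and 3), the epidermal one from -0.06 to 0.74 (without A300 tumor 2 and Control1 tumor 1), and the prostate one turned to 0.16 without Control1 tumor 1. Of the skeletal muscle genes 6 had a higher and 14 a lower mean, and their median ran from -4.45 without A300 tumor 1 to 6.21 without Control1 tumor 2.

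**Figure D5:**
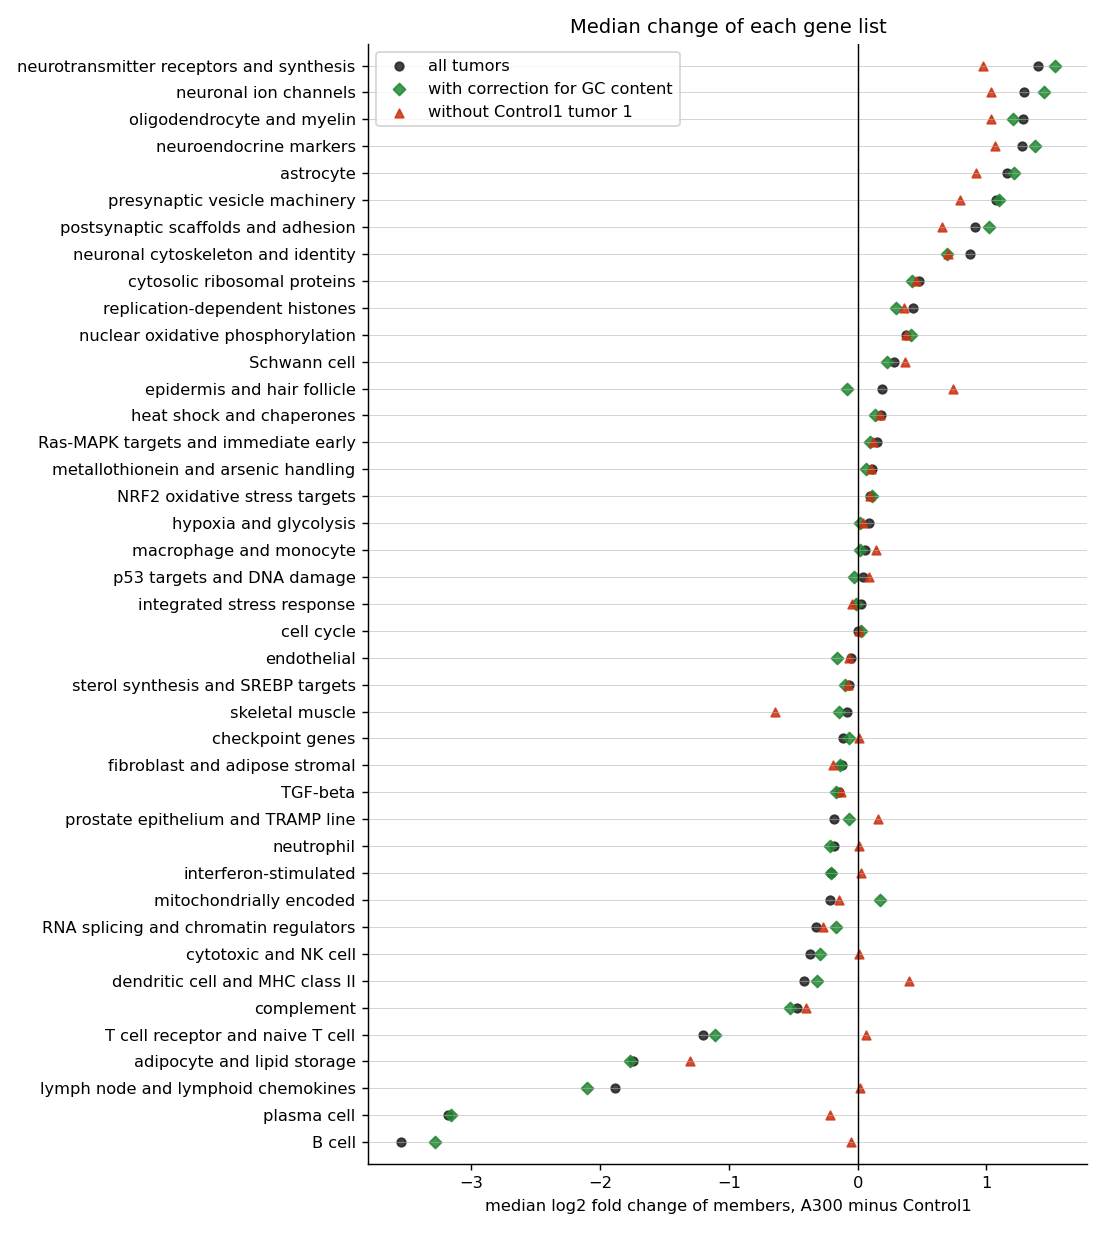
Median log2 fold change, A300 minus Control1 (x axis), of each gene list (y axis) for all tumors, after GC correction and without Control1 tumor 1. Neuronal and glial lists stay above 0 in all 3 settings and the adipocyte list below it, the mitochondrially encoded list changes sign with GC correction, and the B cell and T cell lists move to near 0 without Control1 tumor 1.

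The genes that the study singled out for immune checkpoints, transcription factors and myeloid function were chosen on these tumors and are no independent evidence of a direction. Besides Tgfb1, for which the RT-qPCR result of the paper is given above, none was called. On the log2 scale Pdcd1, which encodes PD-1, differed by -0.08, its ligand gene Cd274 by -0.49 (adjusted p = 0.166), Lag3 by 0.29, Cxcr6 by -0.31 and Ccl3 by -0.15. The checkpoint list of 12 genes had a median of -0.11 and no call. Klrc1, an inhibitory NK receptor, differed by -0.71 and Fgf12, a neuronal growth factor homolog, by 1.85 (adjusted p = 0.199). Differences were -0.85 for Pparg, 0.12 for Srebf1, 0.30 for Tcf3, -0.67 for Ebf1 and 0.23 for Pou2f2. The paper named these transcription factors from an enrichment analysis of downregulated genes and gives no value for their own RNA. It named Cd274, Klrc and Tmprss2 for tumors with ASC. Among genes it measured by RT-qPCR, differences were 0.20 for Arg1, 0.28 for Il1b, 0.36 for Nos2 and -0.07 for Irf1. Ifng was at the floor in the Control1 tumors, so no direction is given for it, and Tmprss2 was not tested.

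The same iAs contrast in tumors with added stromal cells shares no tumor with the comparison above. ASC300 against ASC gave 0 calls (0% of 20818 genes; 307 higher and 362 lower at an unadjusted p under 0.05). Of the 146 genes called higher in A300 tumors 63 (43.2%) were also higher in ASC300 than in ASC, with a median log2 change of -0.03, and of the 74 called lower 48 (64.9%) were also lower, with a median of -0.05, where 52.4% of all genes had the same direction in both contrasts. Tgfb1 had a change of 0.01 there, Cebpb -0.04, Syp -0.02, Mbp -0.10, Rps28 -0.30, Gstp1 -0.03, Mt3 -0.12 and Mtf2 -0.07. The adipocyte list kept its sign with a median of -2.14, although there ASC tumor 2 alone was high. Whether the iAs effect differed with and without ASC was tested by the interaction, which called 0 genes (0%; smallest adjusted p = 0.309, 2836 genes at an unadjusted p under 0.05), and the DESeq2 Wald test called 174. A difference between the iAs effects was therefore not shown for any gene by the main test.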

How the data were processed

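Poly(A) RNA of 12 tumors was sequenced as stranded paired-end libraries on a NovaSeq instrument. The deposited table holds whole-number counts per Ensembl gene, not normalized. Per the submitters' processing notes and the paper, the authors used cutadapt 1.1.0, HISAT2 2.0, StringTie 1.3.4 and Ballgown. The counting step, its use of strand, the genome build and the annotation are not given in the sources used here. Symbols, transcript GC content and length came from GENCODE M21 (55141 of 55401 IDs matched, GC for 99.86% of genes tested), and promoters from RefSeq.

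R 4.3.3 with edgeR 4.0.16 was used: filterByExpr by group, TMM, and a quasi-likelihood fit with 1 mean per group to all 12 tumors, as the study used edgeR with the same thresholds. CPM use TMM library sizes, and log2 CPM a prior count of 2. Lists are described by counts and medians, without a set test. The GC correction is a lowess fit per tumor. DESeq2 1.42.0 and limma 3.58.1 served as alternatives. In simulated data with 200 of 20818 genes changed, 60% of the 4-fold and 48.4% of the 2-fold changes were called, with 4 false calls. The simulated counts were drawn independently for each gene, without a GC trend or an outlying tumor. They therefore do not tell how many of the calls in the tumors are false. P-values measure the spread between mice.

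The members, gene lists and tests were chosen with earlier results of these data known. Named genes are those the study singled out, in each direction the 12 non-overlapping calls with a symbol and lowest adjusted p-values and the 6 largest folds at 5 CPM or more in a group, and from every list its called members and the leading 4 by p-value, of which a part is printed. Others are marked in the text as chosen with their values known. The alternatives were other tests, normalizations and low-count filters, no minimum fold, unadjusted p-values, the 6 tumors alone, the replicate number as a block, counts divided by 4, each tumor left out, and the GC correction alone and with length, the last chosen after seeing the data. Some genes are not reported here. Tumor growth, flow cytometry, RT-qPCR and culture data were not analysed here.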

Additional observations from a re-analysis of the deposited data

How the results depend on the processing

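The counts of genes called moved with the processing. Against 146 higher and 74 lower, the numbers were 495 and 321 with the DESeq2 Wald test, 8 and 0 without a low-count filter, 339 and 115 with at least 10 counts in every tumor, 354 and 106 with counts divided by 4, 122 and 34 with the 6 tumors alone, 276 and 214 with limma voom and sample weights, 328 and 265 without a minimum fold, 750 and 764 with unadjusted p-values under 0.05 and the same fold limit, and 0 and 0 with the GC correction, alone or with length. Where a count was 0, the number at an unadjusted p under 0.05, without a fold limit, was 2755 lower without the filter, 1813 higher and 1541 lower with the GC correction, and 1679 and 1111 with GC and length. Leaving out 1 tumor gave 0 to 279 higher and 0 to 165 lower. The counts were 0 in both directions without any 1 of the Control1 tumors and without ASC300 tumor 1 or 3, 0 and 1 without A300 tumor 2, 1 and 1 without A300 tumor 3, 7 and 0 without ASC300 tumor 2, and 19 and 9 without ASC tumor 2. At an unadjusted p under 0.05 these were 2453 and 2300 without ASC300 tumor 1, 2198 and 2565 without ASC300 tumor 3, 1579 higher without A300 tumor 2, and 2369 lower without ASC300 tumor 2. The interaction called 174 genes with DESeq2, 1211 with unadjusted p-values under 0.05 and the fold limit, and 0 otherwise. The cause of these shifts was not tested.

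Samples with the same replicate number did not deviate together (r = -0.11, -0.06 and 0.09), and pairs with other numbers ran from -0.22 to 0.25. With 3 tumors per group these values cannot decide whether the numbers pair the mice. With the replicate number as a block 134 genes were called higher and 61 lower, of which 110 and 45 were among those called without it.

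Of the single-gene values under all alternatives, 1790 kept direction and side of the threshold, 672 lost the call, 57 gained it and 18 changed sign. Leaving out 1 tumor changed the sign of the log2 change of Hmox1 (range -0.277 to 0.542), Arg1 (-0.0833 to 0.422) and Nos2 (-0.403 to 0.767), each negative without A300 tumor 1, of Pdcd1 (-0.611 to 0.350, positive without A300 tumor 2 or Control1 tumor 1), Ccl3 (-0.742 to 0.137, positive without A300 tumor 2 or 3), Lag3 (-0.285 to 0.635, negative without A300 tumor 3), Irf1 (-0.127 to 0.0888, positive without Control1 tumor 1) and Pou2f2 (-0.0858 without Control1 tumor 3, to 0.739). With the GC correction Lag3 gave -0.00455, Srebf1 -0.128 and Tcf3 -0.0309, and with GC and length Lag3 -0.0527, Srebf1 -0.0659, Tcf3 -0.0343 and Srsf1 0.0458. Ifng, at the floor in Control1, gave -0.39 with limma voom. List medians kept within the spread between tumors in 896 of the list and setting pairs and moved in 28. Genes at or under 12 counts, or 0.246 CPM in Control1 and 0.253 CPM in A300, cannot be measured at this depth.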
